A study of Mus musculus with 12 samples.

Results

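The 10 genes Gcg, Pyy, Insl5, Nts, Gip, Cck, Sct, Ghrl, Sst and Tac1, which encode peptide hormones of the intestinal epithelium, were taken from a table of 55487 genes by matching Ensembl gene identifiers to gene symbols. RNA had been sequenced from freshly isolated crypts of the small intestine (SI tissue) and large intestine (LI tissue) and from epithelial monolayers grown from such crypts for 24 h (SI monolayers and LI monolayers), with 3 libraries in each of the 4 groups. All groups came from C57BL/6 mice that carried no engineered allele and received no drug. Per the study's methods the donors were male or female and 6 to 10 weeks old, the small intestine was represented by the jejunum alone, and the monolayers grew on Matrigel, first in a seeding medium and then in WENR medium, which supplies Wnt3a, EGF, Noggin and R-spondin-1. Each tissue library is 1 mouse, whereas a monolayer library is a pool of culture wells, so that the spread between monolayer libraries may be partly technical. The methods describe both regions as taken from the same mice, so SI and LI libraries may share donors, but no label ties a library number to a mouse. Jejunal crypts were released with EDTA and large intestinal crypts with collagenase, dispase and EDTA, so region and isolation method cannot be told apart.

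Gut hormones are made by enteroendocrine cells, which are scattered singly through the epithelium, sense the contents of the lumen and release peptides from dense-core granules. Different cells make different peptides, and the mixture changes along the gut. Glucose-dependent insulinotropic peptide, cholecystokinin, secretin and ghrelin are classically products of the stomach and proximal intestine, whereas peptide YY and insulin-like peptide 5 are classically products of the ileum and colon. Proglucagon, somatostatin and neurotensin are made along much of the intestine, in amounts that depend on the segment.

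The start-site regions of 5 of the genes, picked with their values known, are shown as examples of the kinds of difference described below. Gcg and Cck rose in both cultures, Sct fell in the SI culture, and Gip and Sst were higher in SI than in LI. Insl5, Ghrl, Pyy and Nts, which also differed between the regions, are not shown. The sequences are those of RefSeq for GRCm38.p6, from 250 bases before the start site to 50 bases after it, read 5′ to 3′ on the strand of the gene. Capitals mark the letters of 3 searched motifs: the E-box CAGATG, of the kind bound by NeuroD-type factors; the GATA-factor site AGATAA; the cAMP response element TGACGTCA.
Gcg (minus strand, chr2:62483604-62483903): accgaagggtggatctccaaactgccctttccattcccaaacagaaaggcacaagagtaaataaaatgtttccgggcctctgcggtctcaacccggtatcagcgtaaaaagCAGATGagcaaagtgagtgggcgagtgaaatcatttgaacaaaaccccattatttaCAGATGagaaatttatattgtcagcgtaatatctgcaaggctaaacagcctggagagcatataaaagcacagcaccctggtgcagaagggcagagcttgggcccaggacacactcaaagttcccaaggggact
Cck (minus strand, chr9:121495645-121495944): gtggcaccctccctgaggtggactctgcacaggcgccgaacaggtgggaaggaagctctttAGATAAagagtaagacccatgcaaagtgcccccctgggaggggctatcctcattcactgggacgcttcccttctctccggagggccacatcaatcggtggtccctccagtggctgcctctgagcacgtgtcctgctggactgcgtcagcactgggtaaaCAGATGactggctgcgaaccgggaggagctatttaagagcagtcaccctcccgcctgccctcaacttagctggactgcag
Sct (minus strand, chr7:141279084-141279383): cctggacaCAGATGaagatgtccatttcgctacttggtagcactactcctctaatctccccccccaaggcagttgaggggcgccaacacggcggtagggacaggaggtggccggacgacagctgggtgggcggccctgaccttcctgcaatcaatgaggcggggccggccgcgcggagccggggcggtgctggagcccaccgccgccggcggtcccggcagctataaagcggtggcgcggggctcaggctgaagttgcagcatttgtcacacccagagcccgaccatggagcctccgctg
Gip (plus strand, chr11:96024295-96024594): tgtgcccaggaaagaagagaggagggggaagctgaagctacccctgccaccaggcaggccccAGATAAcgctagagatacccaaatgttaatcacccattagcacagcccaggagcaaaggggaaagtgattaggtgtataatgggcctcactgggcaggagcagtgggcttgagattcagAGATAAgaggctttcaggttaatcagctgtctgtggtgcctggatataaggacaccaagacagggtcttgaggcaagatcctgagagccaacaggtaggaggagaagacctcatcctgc
Sst (minus strand, chr16:23890795-23891094): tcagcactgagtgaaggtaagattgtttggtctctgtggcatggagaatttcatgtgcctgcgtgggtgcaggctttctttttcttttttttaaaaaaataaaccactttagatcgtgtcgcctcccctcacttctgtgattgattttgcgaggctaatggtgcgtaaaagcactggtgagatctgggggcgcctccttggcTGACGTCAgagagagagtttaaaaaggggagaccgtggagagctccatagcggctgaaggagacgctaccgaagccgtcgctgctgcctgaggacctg
The Gcg window held CAGATG at -139 and -83 from the start site, and the Cck window held it at -30 with AGATAA at -189. The Gip window held AGATAA at -188 and -69. Sct carried CAGATG at -242, and Sst carried the cAMP response element at -48. With both strands searched, CAGATG occurred in 17.2% of the 32851 RefSeq start-site windows and in 7 of the 15 windows of the 10 hormone genes, AGATAA in 11.2% of all windows and in 5 of those 15, and TGACGTCA in 1.79% of all windows and in 1 of the 15. No 2 matches overlapped in the windows shown. Of the 4 Ghrl windows 2 overlap, as do both Pyy windows, and a match of letters is not evidence that a factor bound there.

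The libraries held 59016196 to 76216530 counts each. Mitochondrially encoded genes took 4.56 to 9.16% of the counts in SI tissue and 2.25 to 2.59% in LI tissue, against 0.472 to 0.559% in SI monolayers and 0.704 to 0.750% in LI monolayers; their part in the culture differences below was not tested. Among genes with 1 to 20 counts, 73.4 to 77.4% of the counts were even numbers. How mates of a read pair were counted is not given, so a count may stand for fewer sequenced fragments. Epithelial keratin and adhesion genes were high in all 12 libraries. The 6 small intestinal markers were each called, as defined below, higher in SI tissue than in LI tissue and the 6 large intestinal markers were each called lower. Of all genes tested 11.6% were called higher there and 11.1% lower. Between the monolayers 5 of the 6 in each set were called, in the same directions, beside 12.4% of all genes higher and 8.88% lower. In the LI culture 4 of the 6 large intestinal markers were called lower, against 23.5% of all genes tested. The sum of the 6 large intestinal markers ran from 1917 to 4191 CPM in LI tissue and from 458 to 472 CPM in LI monolayers. In the SI culture 2 of the 6 small intestinal markers were called lower, against 16.4% of all genes tested. Of the markers of other tissues that could supply the same peptides, the pancreatic islet genes Ins1 and Ins2 were at 0 in every library. They belong to a list of 8 pancreatic markers, which were not all at 0. The 8 summed to at most 0.216 CPM in SI tissue, 0.277 CPM in SI monolayers, 0.0942 CPM in LI tissue and 0.137 CPM in LI monolayers. In SI tissue and in SI monolayers 1 of the 8 reached 10 counts in a library. All 10 hormone genes passed the filter on low counts and were tested among 19581 genes. Below, CPM is counts per 1000000 counts of the library after TMM scaling, a gene is called when its edgeR quasi-likelihood test gave an adjusted p under 0.05 with a log2 difference of 1 or more in either direction, and intervals are 95% intervals.

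More of these genes were called between the regions than between the preparations. In fresh crypts 9 of the 10 were called between SI tissue and LI tissue, 6 higher in SI (Nts, Gip, Cck, Sct, Ghrl and Sst) and 3 lower (Pyy, Insl5 and Tac1). Of all genes tested 22.7% were called, 11.6% higher and 11.1% lower. The libraries of SI and LI tissue did not overlap for any of the 10, a separation that 58.6% of all tested genes showed. In monolayers 7 were called, 5 higher in SI and 2 lower, against 21.2% of all genes called, 12.4% higher and 8.88% lower. The monolayer libraries of the regions also did not overlap for any of the 10, beside 62.4% of all genes. The median log2 difference over the 10 genes, SI over LI, was 2.63 in tissue and 1.04 in monolayers, beside 0.06 and 0.02 over all genes tested.

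**Figure D1:**
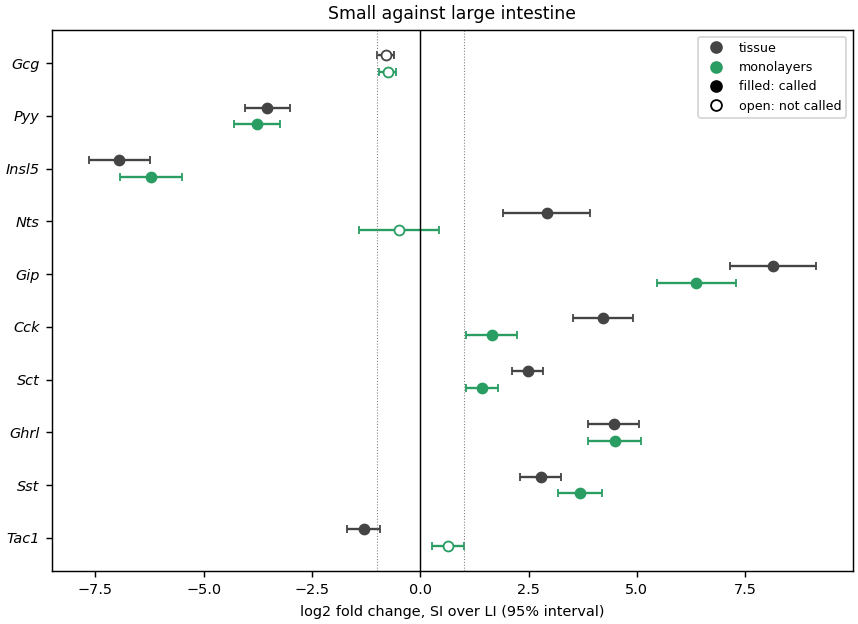
Log2 fold change of each hormone gene, SI over LI, in tissue and in monolayers, with 95% intervals; filled points are called and dotted lines mark the minimum fold change. Gip lies farthest to the right in both preparations and Insl5 farthest to the left, while Nts and Cck lie closer to 0 in monolayers than in tissue and Tac1 lies on opposite sides of 0.

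Culture changed the hormones one by one, and for 4 of the 10 the change differed between the regions. In the SI, 5 of the 10 were called between monolayers and tissue, with Gcg, Cck and Tac1 higher and Nts and Sct lower, against 26.1% of all genes tested, 9.71% higher and 16.4% lower. In the LI, 3 were called, with Gcg, Cck and Nts higher and none lower by edgeR, against 38.0% of all genes, 14.5% higher and 23.5% lower. The count of 0 in the LI rests on the minimum fold change, the scaling, the filter and single libraries. Insl5, Sct and Sst were lower at an unadjusted p under 0.05. Insl5 and Sct were both called lower, beside the same count of 3 higher, with DESeq2, with upper quartile scaling, with a filter of at least 10 counts in every library and without any 1 of the 6 monolayer libraries. Upper quartile scaling moved the median of all genes in the LI comparison by -0.12 on the log2 scale. The median log2 change over the 10 genes was -0.17 in the SI and -0.06 in the LI, beside -0.05 over all genes in both. The change itself differed between the regions for 4 genes, Nts, Cck, Sct and Tac1, by the interaction of region and preparation, which is the SI change minus the LI change, against 20.0% of all genes tested. It was higher for Tac1 and lower for the other 3, where 11.4% of all genes were called higher and 8.51% lower. Monolayer and tissue libraries did not overlap for 6 of the 10 genes in each region, beside 66.4% of all genes in the SI and 73.0% in the LI. As these are bulk RNA samples, more or fewer cells making a hormone and more or less hormone RNA per cell cannot be told apart.

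**Figure D2:**
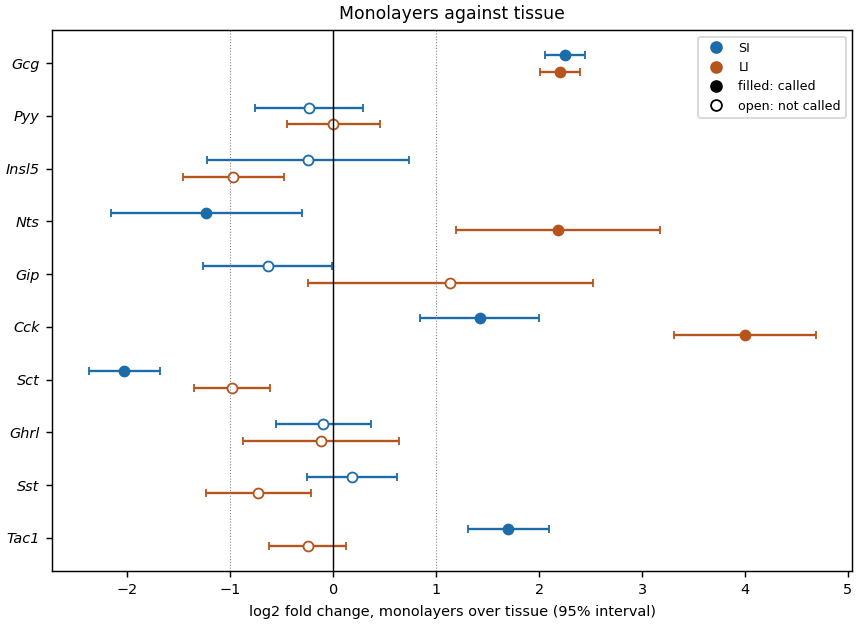
Log2 fold change of each hormone gene, monolayers over tissue, in SI and LI, with 95% intervals; filled points are called and dotted lines mark the minimum fold change. Gcg changed by nearly the same amount in both regions, Cck rose in both but further in the LI, and Nts fell in the SI and rose in the LI.

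Gcg encodes proglucagon, which enteroendocrine L cells cleave to glucagon-like peptide 1, an incretin, and glucagon-like peptide 2, a growth factor for the mucosa. The gene (ENSMUSG00000000394.15, GRCm38, chromosome 2, 62474530 to 62483650, minus strand) measured 39.8, 31.9 and 33.3 CPM in SI tissue and 167, 162 and 171 CPM in SI monolayers. In LI tissue it measured 66.7, 56.0 and 60.3 CPM, and in LI monolayers 305, 285 and 253 CPM. The 4 groups did not overlap, and every monolayer library lay above every tissue library of either region. Gcg rose 4.76-fold in the SI (log2 2.25, SE 0.09, adjusted p = 4.23e-11) and 4.61-fold in the LI (log2 2.20, SE 0.09, adjusted p = 1.79e-11). The difference between these changes was 0.05 on the log2 scale, with an interval of -0.22 to 0.31. Its levels were lower in SI than in LI by a log2 difference of -0.80 in tissue (adjusted p = 2.55e-06) and -0.75 in monolayers (adjusted p = 4.18e-06), both under the minimum fold change.

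Pyy encodes peptide YY, which slows gastric emptying and lowers appetite, and is often made by the same L cells as proglucagon. The gene (ENSMUSG00000017311.15, GRCm38, chromosome 11, 102106676 to 102107832, minus strand) measured 78.4, 48.2 and 79.9 CPM in LI tissue and 75.98, 65.4 and 65.1 CPM in LI monolayers. In SI tissue it measured 6.42, 7.11 and 4.41 CPM, and in SI monolayers 5.05, 4.94 and 5.18 CPM. The LI libraries were all above the SI libraries, whereas tissue and monolayers of a region overlapped. SI was lower than LI by a log2 difference of -3.53 in tissue (SE 0.23, adjusted p = 6.21e-07) and -3.77 in monolayers (SE 0.23, adjusted p = 4.41e-07), that is 11.5-fold and 13.6-fold. The culture change was not called in either region: its intervals ran from -0.76 to 0.29 in the SI and from -0.45 to 0.45 in the LI, and the sign of the LI value turned with the processing.

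Insl5 encodes insulin-like peptide 5, a relaxin-family peptide of colonic L cells that is released with peptide YY. This gene (ENSMUSG00000066090.5, GRCm38, chromosome 4, 103017872 to 103026842, minus strand) measured 81.1, 64.5 and 117 CPM in LI tissue and 47.3, 42.9 and 43.6 CPM in LI monolayers. In the SI it lay between 0.498 and 1.12 CPM in tissue and between 0.557 and 0.625 CPM in monolayers, from 34 to 64 counts a library. Every LI tissue library was above every LI monolayer library, and all of those were far above the SI. The SI level was 123-fold lower in tissue (log2 -6.95, SE 0.31, adjusted p = 4.56e-08) and 74.4-fold lower in monolayers (log2 -6.22, SE 0.31, adjusted p = 1.10e-07). In the LI the monolayers measured -0.97 on the log2 scale against tissue (SE 0.22, adjusted p = 0.00275), just under the minimum fold change.

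Nts encodes neurotensin, which promotes fat uptake and slows upper gut motility and is made by N cells. The gene (ENSMUSG00000019890.4, GRCm38, chromosome 10, 102481756 to 102490486, minus strand) measured 45.5, 54.1 and 35.1 CPM in SI tissue and 20.4, 18.0 and 18.9 CPM in SI monolayers. In LI tissue it measured 5.09, 10.4 and 2.32 CPM, a wide spread, and in LI monolayers 26.5, 27.8 and 26.4 CPM. The order of the groups was thus SI tissue, LI monolayers, SI monolayers and LI tissue, with no overlap between neighbours. Nts fell 2.35-fold in the SI (log2 -1.23, SE 0.41, adjusted p = 0.0280) and rose 4.53-fold in the LI (log2 2.18, SE 0.43, adjusted p = 0.00173). The SI call did not hold without SI tissue replicate 1 or 2 or without any 1 of the 3 SI monolayer libraries, with adjusted p from 0.0599 to 0.0882. The change differed between regions by -3.41 on the log2 scale (interval -4.77 to -2.05, adjusted p = 0.00147). In tissue SI was 7.55-fold higher than LI (adjusted p = 0.000455), and in monolayers the difference was -0.49, with an interval of -1.42 to 0.43.

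Gip encodes glucose-dependent insulinotropic peptide, the incretin of proximal K cells. The gene (ENSMUSG00000014351.12, GRCm38, chromosome 11, 96024545 to 96030831, plus strand) measured 133, 97.5 and 72.4 CPM in SI tissue and 63.5, 64.9 and 66.3 CPM in SI monolayers. In LI tissue it measured 0.592, 0.398 and 0.0783 CPM, from 44, 30 and 6 counts, and in LI monolayers 0.493, 0.990 and 0.883 CPM, from 34, 58 and 60 counts. SI tissue was 284-fold above LI tissue (log2 8.15, SE 0.43, adjusted p = 3.13e-07) and SI monolayers were 83.0-fold above LI monolayers (log2 6.37, SE 0.40, adjusted p = 9.97e-07). The few counts in the LI can be set beside those of other genes of the small intestine, among them Sis, sucrase-isomaltase of the brush border. As a percent of the SI tissue mean, Gip stood at 0.587, 0.394 and 0.0776 in the 3 LI tissue libraries, where Sis stood at 0.785, 0.287 and 0.0896. In LI monolayers Gip stood at 0.488, 0.981 and 0.875% and Sis at 0.417, 0.837 and 0.674%. Other genes stood at other percents: over the 6 LI libraries Lct, the lactase gene, ran from 0.00827 to 0.614%, Gata4, a transcription factor of the proximal gut, from 0.721 to 1.82% and Ghrl from 3.39 to 5.89%. The part of SI material in the LI libraries was not tested. The culture change of Gip was not called, at -0.64 in the SI (adjusted p = 0.0759) and 1.14 in the LI (adjusted p = 0.127).

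Cck encodes cholecystokinin, which contracts the gallbladder and stimulates pancreatic enzyme secretion. The gene (ENSMUSG00000032532.7, GRCm38, chromosome 9, 121489824 to 121495694, minus strand) measured 69.2, 42.9 and 39.1 CPM in SI tissue and 129, 133 and 143 CPM in SI monolayers. In LI tissue it measured 3.89, 2.31 and 1.90 CPM, and in LI monolayers 44.5, 45.7 and 39.2 CPM. The LI monolayers had thus reached the range of SI tissue, with which they overlapped, while the other neighbouring groups did not overlap. Cck rose 15.99-fold in the LI (log2 3.999, SE 0.30, adjusted p = 1.89e-06) and 2.68-fold in the SI (log2 1.42, SE 0.25, adjusted p = 0.00101). The interaction was -2.57 on the log2 scale (interval -3.45 to -1.70, adjusted p = 0.000535). The regional difference was 18.7-fold in tissue (adjusted p = 2.57e-06) and 3.133-fold in monolayers (adjusted p = 0.000514).

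Sct encodes secretin, which stimulates bicarbonate secretion by the pancreas. Sct (ENSMUSG00000038580.13, GRCm38, chromosome 7, 141278330 to 141279133, minus strand) measured 47.1, 39.6 and 32.9 CPM in SI tissue and 10.1, 9.61 and 9.60 CPM in SI monolayers. In LI tissue it measured 7.35, 8.85 and 5.24 CPM, and in LI monolayers 3.75, 3.59 and 3.50 CPM. No group overlapped another, and monolayers were below tissue in both regions. Sct fell 4.08-fold in the SI (log2 -2.03, SE 0.16, adjusted p = 1.07e-07), while in the LI the value was -0.98 (SE 0.17, adjusted p = 0.000167), just under the minimum fold change. The interaction was -1.05 (interval -1.55 to -0.54, adjusted p = 0.00226), and it fell short of the minimum fold change at -0.96 with upper quartile scaling and at -0.86 to -0.96 in 8 of the 12 fits that left out 1 library, those without SI tissue replicate 1, LI tissue replicate 3 or any 1 of the 6 monolayer libraries. SI was 5.58-fold above LI in tissue (adjusted p = 2.32e-08) and 2.7-fold in monolayers (adjusted p = 8.86e-06).

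Ghrl encodes ghrelin, the appetite-stimulating peptide that is mainly a product of the stomach, and it was the lowest of the 10 genes in the LI. The gene (ENSMUSG00000064177.8, GRCm38, chromosome 6, 113716119 to 113719880, minus strand) measured 5.88, 3.66 and 3.49 CPM in SI tissue and 4.01, 3.82 and 4.33 CPM in SI monolayers. It lay between 0.159 and 0.256 CPM in LI tissue and between 0.147 and 0.232 CPM in LI monolayers, from 9 to 19 counts a library. SI was 22.1-fold above LI in tissue (log2 4.46, SE 0.28, adjusted p = 1.52e-09) and 22.5-fold in monolayers (log2 4.49, SE 0.29, adjusted p = 2.11e-09). Tissue and monolayers overlapped in both regions, and the culture change had intervals of -0.56 to 0.37 in the SI and -0.88 to 0.64 in the LI. Ghrl overlaps the opposite-strand genes Gm26982 and Gm44033, and since the strand setting of the counting was not stated, reads of these genes cannot be told apart; the table gave the neighbours 946 and 14 counts over the 12 libraries.

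Sst encodes somatostatin, the D-cell peptide that restrains the release of other gut hormones. Sst (ENSMUSG00000004366.4, GRCm38, chromosome 16, 23889573 to 23890958, minus strand) measured 54.3, 34.5 and 30.2 CPM in SI tissue and 44.2, 43.3 and 47.2 CPM in SI monolayers, which overlapped. LI tissue measured 5.84, 5.25 and 6.21 CPM, and in LI monolayers 2.74, 3.89 and 3.83 CPM, all below LI tissue. SI was 6.87-fold above LI in tissue (log2 2.78, SE 0.22, adjusted p = 1.29e-06) and 12.9-fold in monolayers (log2 3.69, SE 0.23, adjusted p = 2.28e-07). The culture change was 0.18 in the SI, with an interval of -0.26 to 0.62, and -0.73 in the LI (SE 0.23, adjusted p = 0.0155), under the minimum fold change. The difference between these changes was 0.91 (interval 0.24 to 1.58, adjusted p = 0.0304), also under it.

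Tac1 encodes the precursor of substance P and neurokinin A, tachykinins made by serotonin-producing enterochromaffin cells and by enteric neurons. The gene (ENSMUSG00000061762.12, GRCm38, chromosome 6, 7554879 to 7565834, plus strand) measured 9.31, 7.79 and 6.47 CPM in SI tissue and 25.7, 24.4 and 26.4 CPM in SI monolayers. LI tissue measured 23.3, 14.0 and 20.9 CPM, and in LI monolayers 16.5, 18.0 and 14.5 CPM, so that these groups overlapped. Tac1 rose 3.25-fold in the SI (log2 1.70, SE 0.18, adjusted p = 4.26e-06), and its LI value was -0.25 (interval -0.63 to 0.13, adjusted p = 0.218). The interaction was 1.95 (interval 1.41 to 2.49, adjusted p = 4.40e-05). SI was 2.48-fold below LI in tissue (adjusted p = 5.15e-05), and in monolayers SI was above LI by 0.64 on the log2 scale (adjusted p = 0.00764), under the minimum fold change. The 10 enteric neuron markers summed to 20.7 to 22.6 CPM in SI tissue and 16.2 to 19.0 CPM in SI monolayers, and to 10.2 to 16.6 CPM in LI tissue and 18.5 to 20.5 CPM in LI monolayers. The part of neurons in the Tac1 values was not tested.

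**Figure D3:**
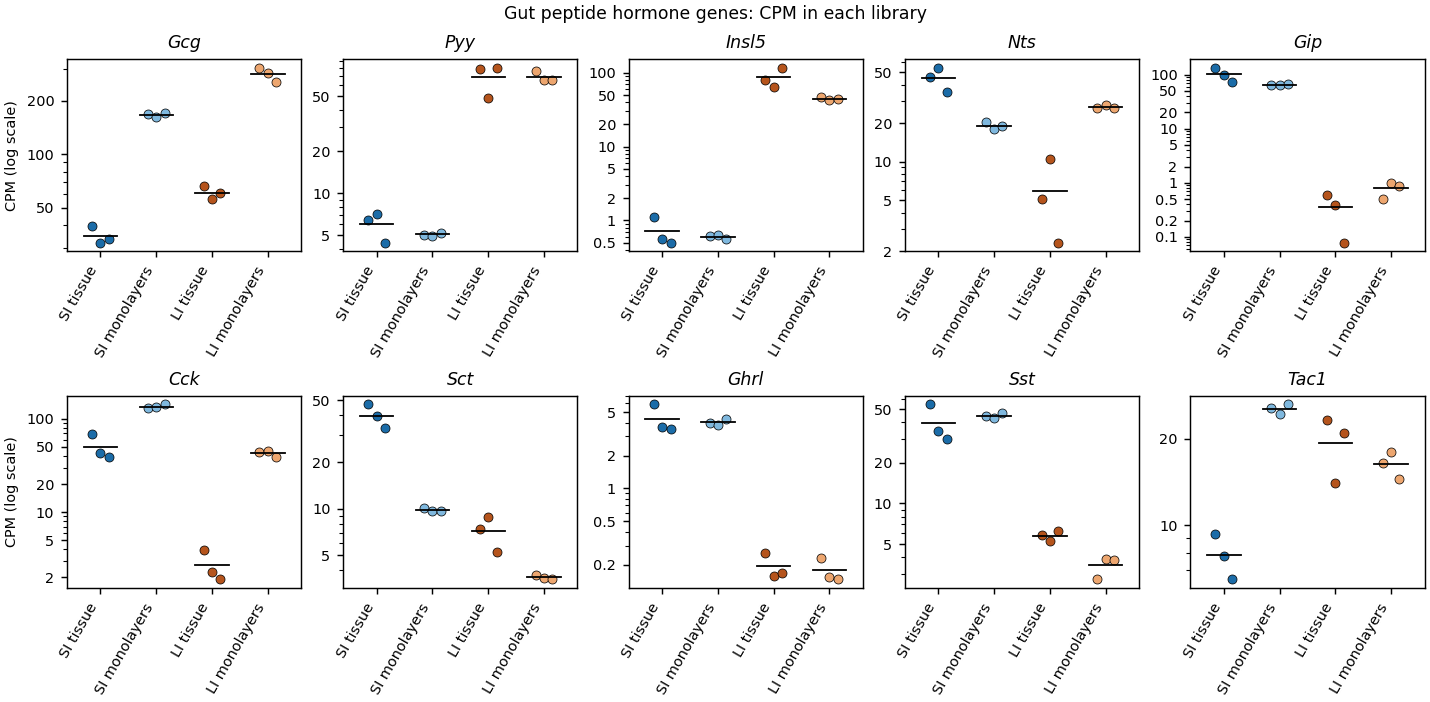
CPM of each hormone gene in the 3 libraries of each group, on log axes that differ between panels; points are libraries and bars are group means. Nts, Cck and Gcg are higher in LI monolayers than in LI tissue, and in most panels the monolayer points lie closer together than the tissue points, Gcg and Sst in the LI being the exceptions.

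The coefficient of variation between libraries was larger in tissue than in monolayers for 10 of the 10 genes in the SI and for 8 of the 10 in the LI, where Gcg and Sst were the exceptions. SI tissue replicate 1 was the highest of its group for Gcg, Insl5, Gip, Cck, Sct, Ghrl, Sst and Tac1, and it was also the highest for Chga, at 117 CPM against 85.2 and 68.1, and for the lactase gene Lct, at 863 CPM against 672 and 358. Its mitochondrial share was 9.16% of counts, against 5.92 and 4.56% in the other tissue libraries of the SI, and the part of this in the hormone values was not tested. Leaving it out changed the call of Nts in the SI and of the Sct interaction, as given above, and of the Sst interaction, which was then called at 1.20 (adjusted p = 2.10e-05). It turned the sign of the SI culture change of Insl5 to 0.19 and of Ghrl to 0.18, neither of them called.

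Expressed per length of transcript, so that the genes can be set beside each other, the 10 hormone genes differed between groups in their make-up. Their sum was 379 ± 93.6 RPKM (SD, n = 3) in SI tissue, 422 ± 12.7 RPKM in SI monolayers, 303 ± 59.1 RPKM in LI tissue and 430 ± 30.1 RPKM in LI monolayers, where RPKM is the CPM value divided by the length of exon in kilobases. SI tissue was led by Gip with 38.5% of the sum, followed by Sct with 16.5%, Sst with 14.4%, Cck with 10.1%, Nts with 9.70% and Gcg with 6.35%. In SI monolayers Gcg had 26.4%, Cck 24.5%, Gip 22.4% and Sst 14.7%, while Sct was down to 3.59%. The order of Gcg and Cck there turned with the length used: with the longest transcript in place of all exons Cck had 31.1% and Gcg 28.2%, and Cck led in all 3 libraries. LI tissue was led by Insl5 with 39.5% and Pyy with 35.7%, followed by Gcg with 13.7%. LI monolayers were led by Gcg with 43.7%, with Pyy at 25.4%, Insl5 at 14.3%, Cck at 7.69% and Nts at 5.03%. With either length Gcg led in all 3 LI monolayer libraries and in none of the 6 tissue libraries. These shares are descriptions, with no test. They cover the 10 genes alone and leave out other peptide genes. Among those left out, the pancreatic polypeptide gene Ppy had a mean of 13.7 RPKM in LI tissue, where Gcg had 40.8 and Sct 11.1 RPKM.

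**Figure D4:**
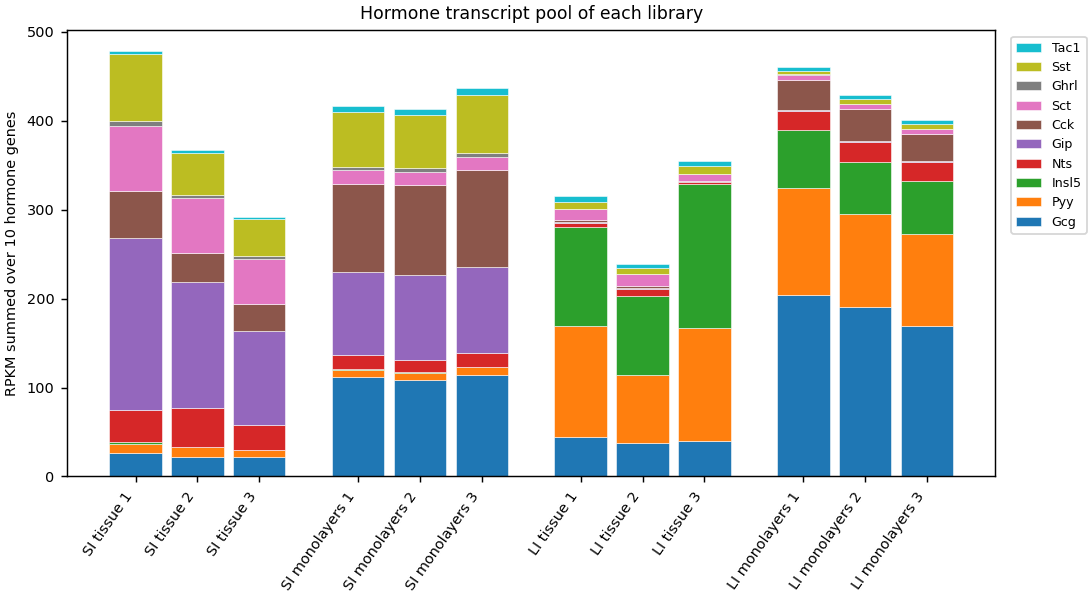
RPKM, by the length of all exons, summed over the 10 hormone genes in each of the 12 libraries, stacked by gene. Gip is the largest block in the 3 SI tissue libraries, Insl5 or Pyy in the LI tissue libraries, and Gcg in all 6 monolayer libraries, though Cck in SI monolayers with the longest transcript as length, while Pyy and Insl5 are large in the LI alone.

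Chromogranins are acidic proteins of the same secretory granules, and their genes are active across endocrine cells that make different hormones. Chga rose in the LI (log2 2.31, adjusted p = 9.995e-07), as did Chgb (log2 2.21, adjusted p = 3.01e-06), while in the SI Chga measured -0.14 (adjusted p = 0.493) and Chgb 0.68 (adjusted p = 0.00921), under the minimum fold change. Relative to the summed counts of Chga and Chgb in the same library, the 10 hormones together stood at 1.18 ± 0.0569 counts per granin count (SD, n = 3) in SI tissue and 1.23 ± 0.00300 in SI monolayers. In the LI they stood at 2.24 ± 0.662 in tissue and 0.871 ± 0.0247 in monolayers. On this relative scale the LI monolayer level of Gcg was 0.958 times that of LI tissue and that of Nts was 0.999 times, while Cck was at 3.40 times. Pyy was at 0.205, Sst at 0.126, Sct at 0.108 and Insl5 at 0.103 times the LI tissue ratio. In the SI, Gcg was at 3.34, Tac1 at 2.31 and Cck at 1.95 times the tissue ratio, whereas Nts was at 0.299 and Sct at 0.174 times. Of the 10 genes, Cck alone was above 1 in both regions. The serotonin-pathway gene Tph1 had a mean of 12.9 CPM in LI tissue and 47.4 CPM in LI monolayers, and of 16.1 CPM in SI tissue and 13.7 CPM in SI monolayers. The granin ratios were not tested, nor was the part of serotonin-producing cells in them.

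**Figure D5:**
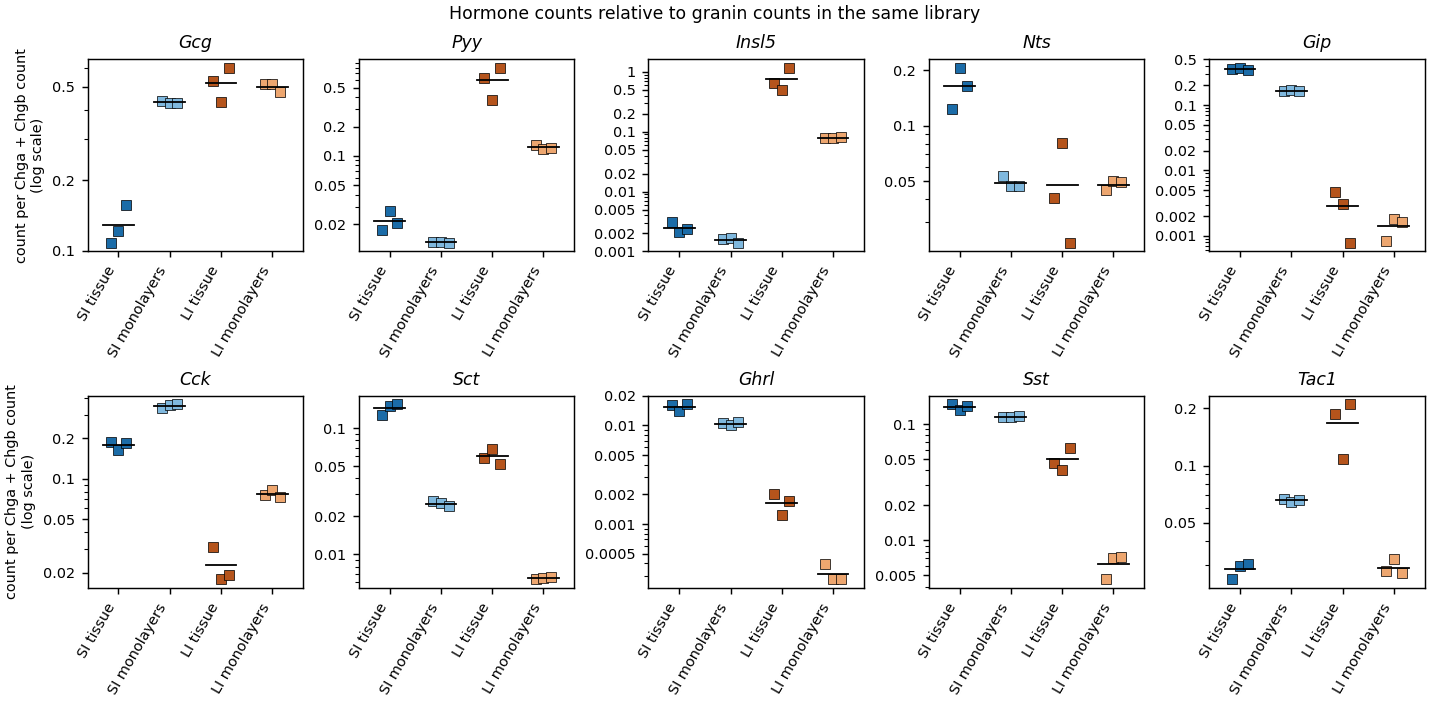
Counts of each hormone gene per count of Chga and Chgb in the same library, on log axes that differ between panels; squares are libraries and bars are group means. The LI tissue and LI monolayer points of Gcg and Nts overlap on this scale, and those of Cck remain apart with monolayers higher.

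Genes around the hormones were read from lists. Of 9 granin and serotonin-pathway genes, 7 were called higher and 1 lower in LI monolayers against LI tissue, with Vgf at 2.97, Chga at 2.31 and Chgb at 2.21 on the log2 scale, against a background of 14.5% called higher and 23.5% called lower. DESeq2 called 5 higher and 1 lower. In the SI culture 0 of the 9 were called by edgeR or by DESeq2, and 4 were higher at an unadjusted p under 0.05. Of 7 genes of prohormone processing, Pam, which amidates the C terminus of peptides such as cholecystokinin, was higher in SI monolayers (log2 1.09) and Pcsk1n, which encodes an inhibitor of the convertase Pcsk1, was lower (log2 -1.11). Of all genes 9.71% were called higher and 16.4% lower in the SI culture. In the LI culture 1 of the 7 was called higher and 1 lower, against 14.5% and 23.5% of all genes. Cpe, the carboxypeptidase that trims cleaved prohormones, was the higher one, at 1.40, and the lower one was under the mean level set for naming. Pcsk1 itself was not called in any of the 5 comparisons, though 3 of them missed only the minimum fold change by edgeR. It was higher in SI than in LI by 0.93 on the log2 scale in monolayers (adjusted p = 1.98e-05) and by 0.39 in tissue (adjusted p = 0.0193). Its interaction was 0.54 (adjusted p = 0.0262). Pam was lower in SI than in LI, by -2.04 in tissue and -1.93 in monolayers.

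Of 16 endocrine transcription factors, 1 was called in the SI culture (St18, log2 -1.26) and 7 in the LI culture, 4 higher and 3 lower. Of all genes 26.1% were called in the SI culture and 38.0% in the LI culture, so the LI share is near that background. DESeq2 called 2 lower in the SI, and 4 higher and 3 lower in the LI. Neurog3, the factor that starts endocrine differentiation in crypt progenitors, fell in the LI (log2 -2.85, adjusted p = 5.87e-06), from 61, 70 and 31 counts in LI tissue to 5, 8 and 6 in LI monolayers. Its SI value was -0.71 (adjusted p = 0.0374), under the minimum fold change, and the difference between the regions was 2.14 (adjusted p = 0.00168). Foxa2 fell in the LI (log2 -1.79) and Insm1, which acts in maturing endocrine cells, rose there (log2 1.38). Neurod1 measured -0.50 in the SI and 0.78 in the LI, called in neither.

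Receptors of these hormones were at low levels, and 11 of 23 passed the filter on low counts. Of these, 6 were called lower in the SI culture and 5 in the LI culture, against 16.4% and 23.5% of all genes called lower. In either culture 0 receptors were higher, by edgeR, by DESeq2 or at an unadjusted p under 0.05. Immune cell markers were lower in the same cultures. The summed level of the 8 markers went from 124 to 195 CPM in SI tissue to 43.6 to 48.5 CPM in SI monolayers, and from 35.6 to 75.8 CPM in LI tissue to 3.35 to 3.88 CPM in LI monolayers. Of the 8, 6 were called lower in the SI and 7 in the LI, none was at 0 in any group, and their part in the receptor and peptidase values was not tested. Npy1r, a receptor of peptide YY, fell by 4.57 on the log2 scale in the LI and by 1.04 in the SI, and Sstr1, a somatostatin receptor, fell by 2.75 and 2.05. Of 9 tested nutrient and irritant sensors of endocrine cells, 3 were higher and 1 lower in the SI culture and 3 higher and 2 lower in the LI culture, against 9.71% of all genes higher and 16.4% lower in the SI and 14.5% higher and 23.5% lower in the LI. The short-chain fatty acid receptor Ffar3 fell by 3.97 in the SI and by 3.74 in the LI. The long-chain fatty acid receptor Ffar4 rose in the SI (log2 1.63), and Trpa1, the irritant channel of enterochromaffin cells, rose in the LI (log2 4.04) and was higher in SI than in LI by 8.58 in tissue. The 3 membrane peptidases that degrade gut peptides all fell in the SI: Dpp4, which inactivates both incretins, by 2.72, Mme by 2.84 and Ace by 5.03. In the LI Dpp4 fell by 2.20 and Ace by 2.01. Dpp4 measured 774, 856 and 577 CPM in SI tissue and 113, 114 and 107 CPM in SI monolayers.

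Over the 12 libraries, the tested genes most like a hormone gene were found by Pearson correlation of log2 CPM, as a description of points that share library, region and preparation. The search left out the hormone genes themselves and genes with a mean under 1 CPM. Gcg was most like the pseudogene Gm7665 (0.996) and the ribosome assembly gene Tsr1 (0.994), Gip was most like Myrfl (0.997) and Sis (0.997), and Cck was most like Itpripl1 (0.995) and Hspd1-ps3 (0.989). For Pyy these were Il1r1 (0.992) and Lgals3 (0.989), for Insl5 Gja1 (0.996) and Itih5 (0.994), and for Sct Glyctk (0.993) and Bend7 (0.992). For Ghrl they were Agmat (0.994) and Ms4a10 (0.994). The values were lowest for Nts, with Nr2c2 (0.966) and Cubn (0.964), and for Tac1, with Sipa1l1 (0.960) and Aldoa-ps4 (0.951). None of the hormone genes described here had another endocrine gene of the lists among its 2 closest. As the search left out the hormone genes and the low endocrine genes, likeness to those was not examined.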

How the data were processed

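Total RNA of 12 libraries, 3 in each of 4 groups, was sequenced by the authors as paired-end reads, aligned to GRCm38 with STAR 2.7.9a and counted per gene with featureCounts 2.0.2 on GENCODE M25. How mates were counted and which strand setting was used are not given in the sources used here. The deposited raw table holds these counts. A second deposited table holds the signal that the authors obtained by dividing each library's counts by a DESeq2 size factor (0.850 to 1.12), and it served for the length-scaled sums as an alternative. Of 55487 gene identifiers, 55141 matched a symbol.

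Counts were tested with edgeR 4.0.16 in R 4.3.3: genes kept by filterByExpr by group (19581), TMM scaling, one model of the 4 group means, robust quasi-likelihood tests and Benjamini-Hochberg adjustment over all genes tested. That model gives each gene 1 estimate of spread for all groups. Tissue libraries varied more than monolayer libraries for 10 of the 10 hormone genes in the SI and 8 in the LI. Standard errors may thus be too small between tissues and too large between monolayers. Genes were called at an adjusted p under 0.05 with a log2 difference of 1 or more in either direction. Data were simulated for the SI culture comparison with 19057 genes, where 100 genes were changed by 1 and 100 by 2 on the log2 scale. At an adjusted p under 0.05 alone, 75% of the genes changed by 1 and 99% of those changed by 2 were recovered, with 13 false calls. The minimum fold change was not applied there, so these shares do not describe the calls used here. In the data 26.1% of genes were called in that comparison, a larger part than was changed in the simulation. The total of 59016196 to 76216530 counts per library limits counting error to the low genes, chiefly Gip and Ghrl in the LI. RPKM used the union of exons in GENCODE M21 and TMM-scaled totals. Alternatives were DESeq2 1.42.0, other scalings and filters, the replicate number as a block, other gene lengths and granin sets, and each library left out in turn. Counts halved and rounded down were added after the data were seen, because of the even counts.

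All 10 hormone genes are named. From each other list at most 3 called genes per comparison are named, those with the largest absolute log2 fold change and a mean of at least 1 CPM, and for each hormone the 2 genes most like it at that level, which for Sst are not reported here. Neurod1, Pcsk1, Ppy, Iapp and Penk, the levels of Tph1, the SI values of Chga, Chgb and Neurog3, and the markers named beside a result stand outside that rule, having been chosen once their values were known. The hormone genes, the lists and the tests were chosen with earlier results of these data known.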

Additional observations from a re-analysis of the deposited data

Results flagged for a closer look

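Of the 10 hormone genes, 4 were noted because the change from tissue to monolayers differed between SI and LI in the test of that difference, the SI change minus the LI change. The difference was -3.41 for Nts, which fell in the SI and rose in the LI, and -2.57 for Cck, which rose in both and further in the LI. It was -1.05 for Sct, which was lower in monolayers of both regions and further so in the SI, and 1.95 for Tac1, which rose in the SI and was not called in the LI. All are log2 values from edgeR with an adjusted p under 0.05. The Sct value lies near the minimum fold change and its call depends on the scaling and on single libraries, as given with its levels. No group has enough libraries for a search for single outlying samples.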

How the results depend on the processing

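The count of hormone genes called in the LI culture, 3 as reported, was 5 with DESeq2, 5 with upper quartile scaling, 5 with at least 10 counts in every library (8 genes tested, without Gip and Ghrl) and 6 with no minimum fold change. Other counts moved too. For the interaction, DESeq2 called 1 gene higher and 4 lower, and upper quartile scaling did not call Sct. With no minimum fold change, Gcg was also called in both regional comparisons, Tac1 between monolayers and Sst for the interaction. Leaving out 1 library gave 4 to 5 genes called in the SI culture, 3 to 5 in the LI culture, 9 to 9 between tissues, 7 to 7 between monolayers and 3 to 5 for the interaction. SI and LI libraries may share donor mice, but nothing ties the replicate numbers to mice, and deviations of same-numbered libraries correlated between -0.0516 and 0.0563. With the replicate block the counts were 5, 3, 9, 7 and 4, as without it. The interaction cannot be fitted on only the groups compared.

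The sign of the LI culture change of Pyy turned with DESeq2 (-0.031), upper quartile scaling (-0.12), no filter (-0.023), at least 10 counts in every library (-0.078), only the groups compared (-0.0073) and counts halved (-0.0076), and ran from -0.20 to 0.12 with 1 library left out. The Ghrl interaction was -0.0070 with counts halved. Other values that crossed 0 with 1 library left out ran from -0.46 to 0.19 for Insl5 in the SI, -0.23 to 0.18 for Ghrl in the SI, -0.44 to 0.12 for Ghrl in the LI, -0.019 to 0.21 for the Gcg interaction and -0.21 to 0.38 for the Ghrl interaction; none of these was called. The Gip interaction was called with DESeq2 (-1.79, adjusted p = 0.0446) and without SI tissue replicate 3 or LI tissue replicate 1 (-1.96 and -2.35). The Sst interaction was called in 5 of the 12 fits that left out 1 library. Among the fold changes of the 10 genes under the settings that kept every library, 357 kept direction and side of the threshold, 15 were newly called, 1 was no longer called and 7 turned in sign.

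With the longest transcript as length the summed level was 543 RPKM in SI monolayers and 542 RPKM in LI monolayers. With 5 granin genes in the denominator the summed ratio was 1.11 in SI tissue, 1.16 in SI monolayers and 0.844 in LI monolayers. The cause of these changes was not tested. Depth limits Gip and Ghrl in the LI, with 6 to 60 and 9 to 19 counts a library, which may stand for fewer fragments.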

Other observations

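Of 12 further peptide genes, 8 passed the filter on low counts. Ppy, which encodes pancreatic polypeptide and lies 5356 bases from Pyy on chromosome 11, measured 7.91, 3.91 and 8.75 CPM in LI tissue and 1.65, 0.512 and 1.06 CPM in LI monolayers, and it had 0 to 4 counts in each SI library. It fell by 2.66 on the log2 scale in the LI culture (adjusted p = 0.000142), whereas the interval of the Pyy change there spanned 0. Iapp, the gene of amylin, rose in both cultures, by 1.57 in the SI and by 1.76 in the LI, from a mean of 0.948 CPM over the 12 libraries. Penk, the gene of the enkephalins, fell by 1.47 in the SI and rose by 2.704 in the LI (log2), and the change differed between regions by -4.18 (adjusted p = 0.000112). Its mean over the 12 libraries was 0.898 CPM, and its SI tissue and SI monolayer libraries overlapped.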
